A study of Mus musculus with 12 samples.

Results

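The genes described here encode enzymes that join glutathione, a sugar or sulfate to drugs, hormones, bilirubin, bile acids and products of oxidation. They encode glutathione transferases, UDP-glucuronosyltransferases and cytosolic sulfotransferases. They were chosen by symbol, as classes alpha, mu, pi, theta, kappa and omega of the glutathione transferases, families 1 to 3 of the UDP-glucuronosyltransferases, and all sulfotransferase families. Of the 24475 genes deposited, 59 matched by symbol, and 41 of these had a mean of at least 0.5 RPKM (a read count scaled to gene length and library depth) over all libraries: 18 glutathione transferases, 16 UDP-glucuronosyltransferases and 7 sulfotransferases. Livers came from fed mice of 2 genotypes, wild type (WT, libraries 1 to 6) and Gcg KO (libraries 7 to 12), the latter labelled Gcg-/-, null for the gene that encodes the precursor of glucagon and of the glucagon-like peptides. The labels name no strain, age, sex, batch or allele design, and do not say whether each library is a separate animal, so the p-values reflect no more than the variation among these libraries, which may be technical. The study asked how glucagon bears on liver zonation, the difference in gene expression between hepatocytes near the portal and near the central vein.

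Conjugation makes a compound more soluble in water, so that it can leave the hepatocyte into bile or blood. Glutathione transferases use the tripeptide glutathione, UDP-glucuronosyltransferases of families 1 and 2 use UDP-glucuronate in the endoplasmic reticulum, and sulfotransferases use the activated sulfate PAPS in the cytosol. Many of these genes are induced by the stress sensor NRF2 and the xenobiotic receptors CAR, PXR and AhR, several are expressed mainly in pericentral hepatocytes, and some differ between male and female mice. The genes lie in clusters of close copies, which matters for reading their RNA levels.

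Depth, estimated from the step that 1 read makes in low RPKM values, was 10300000 to 15000000 reads per library. Pairs of libraries of 1 genotype correlated at 0.970 to 0.989 on the log2 scale, and pairs of different genotype at 0.967 to 0.985. Gcg was listed at 0 in all 12 liver libraries, so the targeted gene checks no label in this tissue. The 5 hepatocyte markers summed to 38710 RPKM or more in every library, although Cps1, a periportal urea cycle enzyme, was lower in Gcg KO (1085 ± 115 to 615 ± 78.1 RPKM, limma adjusted p = 2.15e-04). Kidney markers summed to 0.034 RPKM or less and pancreatic acinar markers to 0.809 RPKM or less. Small intestine markers summed to 58.9 to 97.8 RPKM in WT and 86.4 to 131 in Gcg KO. Of 3 measured genes 1 was higher, against 1.95% of all genes tested. It was the apolipoprotein Apoa4, which hepatocytes also make (35.1 ± 10.2 to 63.1 ± 15.3 RPKM, limma adjusted p = 0.0299). Fabp2 (39.1 ± 7.99 and 41.6 ± 4.36 RPKM, limma adjusted p = 0.750) and Lgals4 (4.96 ± 1.53 and 5.15 ± 1.33, adjusted p = 0.939) did not pass. Libraries WT 6, Gcg KO 10 and Gcg KO 12 stood apart on the first principal component (27.9% of the variance), at 17.0 to 28.8 against -21.9 to 6.99 in the other 9, and the results below are given without them where that matters.

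Of the 41 transferase genes, 6 were lower and 1 was higher in Gcg KO livers. Those that fell were Gstm2, Gstm3 and Gstm7 of the mu class, the kappa-class Gstk1, the glucuronosyltransferase Ugt2b1 and the sulfotransferase Sult1a1. Ugt3a2, of the third glycosyltransferase family, rose. Falls ran from 1.37-fold (Gstm7) to 2.05-fold (Gstm2), and the rise of Ugt3a2 was 1.19-fold. Calls are from limma on log2(RPKM + 0.5), with p adjusted by the Benjamini-Hochberg method over all 11347 genes tested and a threshold of 0.05, and the fold changes understate those of genes with low RPKM. Among all genes tested 3.87% were called, 1.92% lower and 1.95% higher, against 17.1%, 14.6% and 2.44% of the 41. Groups did not overlap for 5 of the 41 (Gstm2, Gstk1, Ugt2b1, Sult1a1 and Ugt3a2), which is 12.2%, against 3.09% of all genes tested. At an unadjusted p under 0.05 were 20 of the 41 (48.8%), against 15.7% of all genes tested. The median log2 fold change of the 41 was -0.02 and that of all genes tested 0.01. By class, 4 of 18 glutathione transferases fell and 0 rose (median -0.32), 1 of 16 glucuronosyltransferases fell and 1 rose (median 0.16), and 1 of 7 sulfotransferases fell and 0 rose (median -0.31). Without WT 6, Gcg KO 10 and Gcg KO 12, a setting added after seeing the data, 8 of the 41 fell and 0 rose. The 8 were the 6 named above with Gsta3 and Sult1c2. Among all 11347 genes tested, 173 were lower and 131 higher in this setting. Ugt3a2 had an unadjusted p under 0.05 there. In bulk liver RNA, fewer cells that express a gene and less RNA per cell cannot be told apart.

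**Figure D1:**
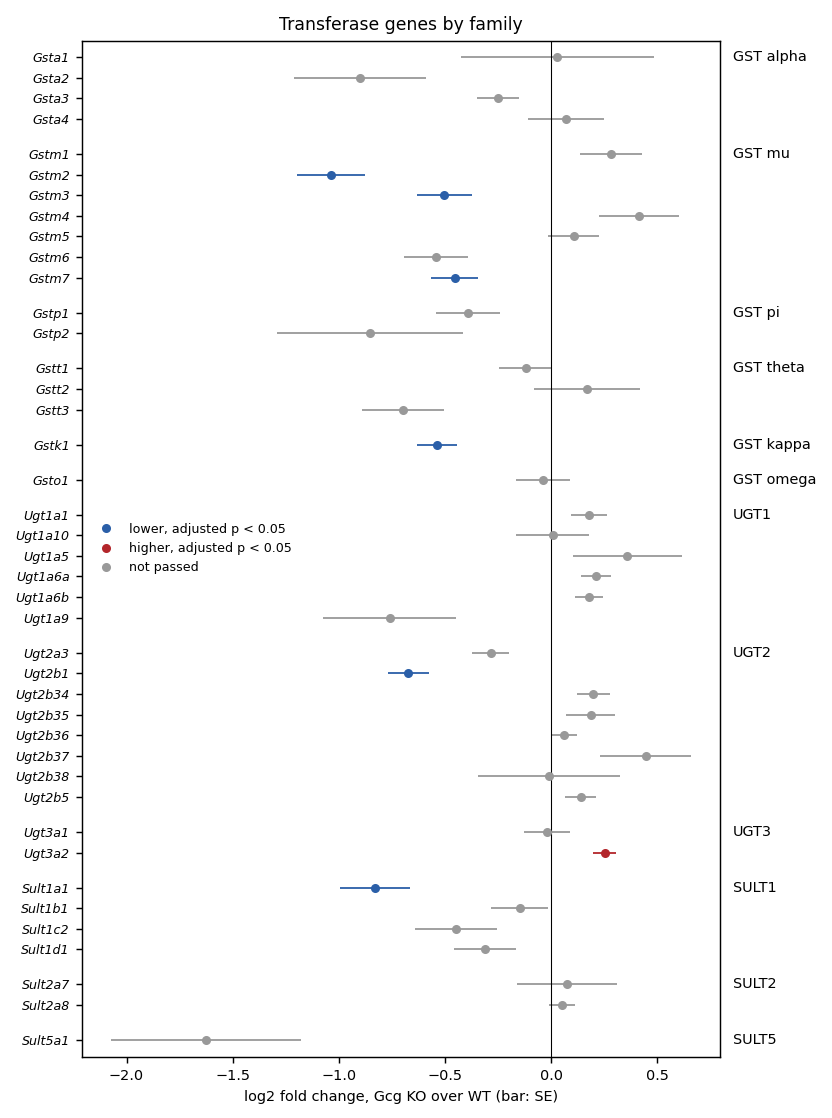
Log2 fold change, Gcg KO over WT, of each of the 41 transferase genes, grouped by family, with its standard error as a bar. Blue points passed the adjusted threshold downwards (6 genes) and the red point, Ugt3a2, upwards; grey points (34 genes) did not pass.

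Promoter sequence of 6 genes that the results turn on is printed here, 5′ to 3′ on the gene's strand, from RefSeq on GRCm38.p6. Each window is the 250 bases before an annotated start, except that 60 bases inside the annotated gene were left out for Gstm7, which leaves 190. Gstm2, Gstm3 and Gstm7 fell and lie in 1 cluster with Gstm1, which did not pass. Their windows are chr3:107986421-107986670, chr3:107969175-107969424, chr3:107931878-107932067 and chr3:108017974-108018223, all on the minus strand, the more upstream of 2 listed starts for Gstm7 and Gstm1. Ugt2b1 (chr5:86926504-86926753, minus strand) and Gstk1 (chr6:42245685-42245934, plus strand) fell without overlap between the groups. Capitals mark a match to the TATA box letters (TATAAA) in Gstm7, near the far end of the window, and the core of a cAMP response element (CGTCA, the reverse complement of TGACG) in Gstk1. The window of the more downstream start of Gstm1, not printed here, also holds TATAAA.
Gstm2: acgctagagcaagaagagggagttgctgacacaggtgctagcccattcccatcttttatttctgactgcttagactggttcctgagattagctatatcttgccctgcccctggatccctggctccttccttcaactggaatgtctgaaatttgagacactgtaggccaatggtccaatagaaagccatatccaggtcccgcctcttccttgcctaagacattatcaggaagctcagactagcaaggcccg
Gstm3: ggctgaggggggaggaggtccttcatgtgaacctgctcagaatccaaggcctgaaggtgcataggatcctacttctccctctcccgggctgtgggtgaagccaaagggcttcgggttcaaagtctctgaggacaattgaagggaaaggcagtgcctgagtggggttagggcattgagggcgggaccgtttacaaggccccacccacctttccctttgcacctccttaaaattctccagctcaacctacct
Gstm7: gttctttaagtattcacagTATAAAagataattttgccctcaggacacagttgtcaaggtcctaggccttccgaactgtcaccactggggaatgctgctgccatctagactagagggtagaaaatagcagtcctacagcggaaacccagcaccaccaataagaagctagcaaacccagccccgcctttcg
Gstm1: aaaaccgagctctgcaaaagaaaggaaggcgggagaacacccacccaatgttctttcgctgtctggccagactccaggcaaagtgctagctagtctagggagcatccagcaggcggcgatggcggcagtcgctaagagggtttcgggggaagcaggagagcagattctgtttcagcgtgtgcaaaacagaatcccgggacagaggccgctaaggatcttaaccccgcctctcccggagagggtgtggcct
Ugt2b1: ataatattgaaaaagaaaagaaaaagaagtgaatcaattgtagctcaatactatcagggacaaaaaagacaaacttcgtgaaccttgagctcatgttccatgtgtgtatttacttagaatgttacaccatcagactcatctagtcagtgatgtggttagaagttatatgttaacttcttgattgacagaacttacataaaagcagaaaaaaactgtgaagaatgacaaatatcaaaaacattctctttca
Gstk1: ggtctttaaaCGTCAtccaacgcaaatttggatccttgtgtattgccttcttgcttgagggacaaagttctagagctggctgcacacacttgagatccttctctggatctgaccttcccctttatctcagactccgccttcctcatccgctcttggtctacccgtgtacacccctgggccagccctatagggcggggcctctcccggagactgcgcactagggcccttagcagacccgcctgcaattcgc

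Promoters were listed for 36 of the 41 genes (44 starts), and 4 patterns were searched on both strands in the 250 bases before each start. Bases inside the annotated gene were kept in this search. Some windows, such as those of the more downstream starts of Gstm7 and Sult2a8, lie wholly inside the gene. The full cAMP response element TGACGTCA, the site through which the glucagon pathway is known to act on many of its target genes, was in 0 of the 44 member promoters and in 1.55% of 32851 mouse promoters. Its core TGACG, which is also part of the full element, was in 3 of the 44 (6.82%), those of Gstk1, Gsto1 and Ugt1a9, against 17.8% of all. The core of the antioxidant response element that NRF2 binds, TGACNNNGC, was in 3 of the 44 (6.82%), those of Gsta3, Gstm5 and the more downstream start of Gstm7, against 10.2% of all. TATAAA was in 6 of the 44 (13.6%), against 12.4%. These were Gsta2, Ugt3a1, each listed start of Sult2a8, the more upstream start of Gstm7 and the more downstream start of Gstm1. A match in these windows is a description and not a binding site, and no match says only that the letters are not in the window.

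In the mu class, 7 genes lie within 149 kb on chromosome 3 (107895854 to 108045179, GRCm38), in the order Gstm5, Gstm7, Gstm6, Gstm3, Gstm2, Gstm1 and Gstm4. Gstm2 fell most. Its RPKM had a lowest value of 45.7, a median of 52.7 and a highest of 71.4 in WT, and 20.8, 24.5 and 40.7 in Gcg KO. All 6 Gcg KO libraries lay below all 6 WT libraries, and Gcg KO 11 was the highest of its group. Mean RPKM was 55.5 ± 9.55 (SD, n = 6) in WT and 27.2 ± 7.57 in Gcg KO, a log2 fold change of -1.04 ± 0.16 (SE, limma adjusted p = 0.00173).

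Gstm3, which like Gstm2 encodes a mu-class subunit and is often measured as an NRF2 target in mouse liver, ran from 48.0 through a median of 53.1 to 67.1 RPKM in WT and from 29.7 through 38.8 to 49.2 in Gcg KO. Here 5 of 6 Gcg KO libraries lay below the lowest WT library, and Gcg KO 12 overlapped with WT. The log2 fold change was -0.50 ± 0.13 (limma adjusted p = 0.0462), close to the threshold, and the call was lost when any 1 library other than Gcg KO 10 or Gcg KO 12 was left out (adjusted p = 0.0581 to 0.107), with log2 fold changes of -0.54 to -0.44. Without WT 6, Gcg KO 10 and Gcg KO 12 it was -0.59 ± 0.11 (limma adjusted p = 0.0154). Gstm7 had 29.7, 36.2 and 37.2 RPKM as its lowest, median and highest values in WT and 20.6, 24.7 and 32.3 in Gcg KO. Gcg KO 10 overlapped with WT, and the other 5 Gcg KO libraries lay below it. The log2 fold change was -0.46 ± 0.11 (limma adjusted p = 0.0384). Leaving out any 1 library other than WT 1, Gcg KO 10, Gcg KO 11 or Gcg KO 12 ended the call (adjusted p = 0.0523 to 0.0918), with log2 fold changes of -0.49 to -0.40. Without the 3 libraries that stood apart it was -0.58 ± 0.10 (limma adjusted p = 0.0153).

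Gstm6, which lies between Gstm7 and Gstm3, did not pass (72.2 ± 9.89 RPKM in WT, 50.1 ± 10.5 in Gcg KO, limma adjusted p = 0.0627). Its values ran from 57.8 through 72.9 to 82.9 in WT and from 30.2 through 51.6 to 59.3 in Gcg KO, with 4 of 6 Gcg KO libraries below WT. Gstm1, the most abundant mu-class gene with 79.4% of the class's summed RPKM in WT and 86.3% in Gcg KO, ran from 778 through 960.4 to 1195 in WT and from 790.1 through 1207 to 1514 in Gcg KO. The groups overlapped, and the log2 fold change of 0.28 ± 0.14 did not pass (limma adjusted p = 0.378). Within each group Gstm1 was highest in libraries that stood apart, at 1195 RPKM in WT 6 and 1380.2 and 1514 in Gcg KO 10 and Gcg KO 12. Without these 3 libraries the log2 fold change of Gstm1 was 0.19 ± 0.14 (limma adjusted p = 0.573). Gstm4 (28.6 ± 7.58 and 38.1 ± 9.55 RPKM) and Gstm5 (5.34 ± 0.931 and 5.78 ± 0.943) did not pass either.

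**Figure D2:**
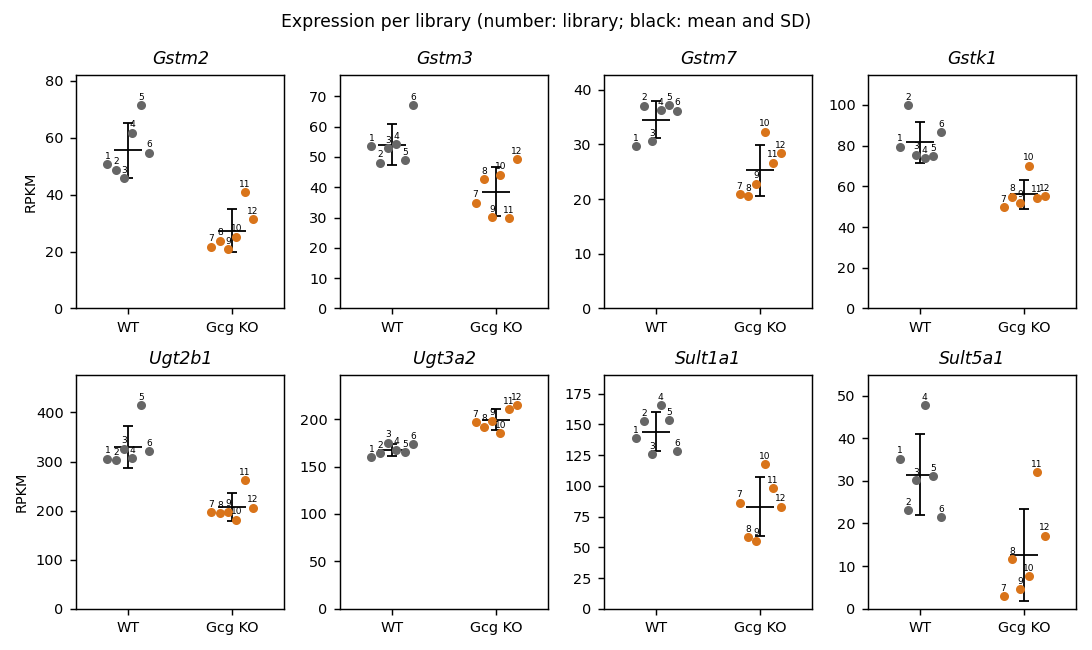
RPKM by library, numbered, with WT in grey, Gcg KO in orange and group means with SD in black, for the 7 genes that passed the threshold and for Sult5a1, which did not. The groups do not overlap for Gstm2, Gstk1, Ugt2b1, Ugt3a2 and Sult1a1, and 1 Gcg KO library overlaps with WT for each of Gstm3, Gstm7 and Sult5a1.

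Whether neighbours in a cluster changed alike was tested on the log2 ratio of each pair of adjacent genes, library by library. An exact permutation test was used, two-sided, with 924 arrangements of the libraries, and it was added with the values known. In all 13 pairs were tested, 6 of the Gstm cluster and 7 of the Ugt2 cluster, with p adjusted over these pairs, and 3 passed. Each of the 3 holds Gstm2 or Ugt2b1, which limma called lower on the same values, so they are not independent of those calls. The passing pairs with Ugt2b1 share that gene and are not independent of each other. A pair that did not pass is not thereby shown to have changed alike. The ratio of Gstm2 to Gstm1 was -4.12 ± 0.38 (SD, n = 6) in WT and -5.44 ± 0.59 in Gcg KO, so Gstm2 fell by 1.32 on the log2 scale relative to its neighbour (exact permutation p = 0.00866, adjusted p = 0.0375). Gstm1 against Gstm4 moved by -0.13 (exact permutation p = 0.392), Gstm6 against Gstm3 by -0.04 (exact permutation p = 0.838) and Gstm7 against Gstm6 by 0.09 (exact permutation p = 0.591), none of which passed. Gstm3 against Gstm2 (0.53, exact permutation p = 0.0498, adjusted p = 0.108) and Gstm5 against Gstm7 (0.56, exact permutation p = 0.0281, adjusted p = 0.0732) did not pass once adjusted.

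**Figure D3:**
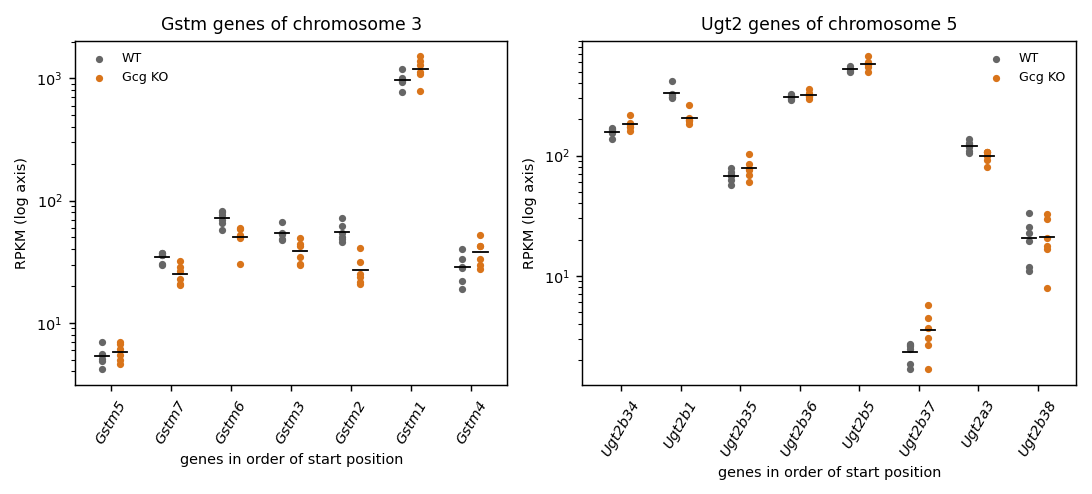
RPKM (log axis) of the 7 Gstm genes of chromosome 3 and the 8 Ugt2 genes of chromosome 5 in order of start position, 1 point per library, WT grey and Gcg KO orange, with group means as black lines. The WT points of Gstm2 and Ugt2b1 lie above all their Gcg KO points, while those of Gstm1, next to Gstm2, overlap with theirs.

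Coding sequences of the mu class were 64.0% to 85.2% identical, the closest pairs being Gstm2 with Gstm7 (85.2%) and Gstm2 with Gstm3 (85.0%). To gauge how far reads could be assigned, each transcript was cut into all windows of 50 bases, and those also present in a transcript of another gene were counted. This share was 9.4% for Gstm2, 28.8% for Gstm3, 33.0% for Gstm1 and 0 for Gstm7 and Gstm4. The gene that shared most with Gstm3 was Gm8834, and for Gstm1 it was the pseudogene Gstm2-ps1 (24.3% of the windows of Gstm1). The sources used here do not say how reads were divided between copies, so Gstm1 and Gstm3 are uncertain to that extent.

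Gstk1, the kappa-class enzyme, which resides in mitochondria and peroxisomes rather than in the cytosol, ran from 73.9 through 77.5 to 99.97 RPKM in WT and from 49.8 through 54.7 to 70.2 in Gcg KO. The groups did not overlap, and Gcg KO 10 was well above the other Gcg KO libraries. Mean RPKM fell from 81.7 ± 10.1 to 56.1 ± 7.22, a log2 fold change of -0.54 ± 0.09 (limma adjusted p = 0.00488). No 50-base window of its transcript occurs in another gene's transcript. Gstk1 lies on chromosome 6 (42245935 to 42250441), away from the other glutathione transferases.

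The most abundant transferase RNAs did not pass. Gstp1, the pi-class enzyme, known as a major glutathione transferase of male mouse liver, ran from 1944 through 2626 to 3182 RPKM in WT and from 1422 through 1935 to 2575 in Gcg KO. Gcg KO 10, 11 and 12 lay below WT and the other 3 overlapped with it (log2 fold change -0.39 ± 0.15, limma adjusted p = 0.204). Gstp1 alone held 30.6% of the summed RPKM of the 41 genes in WT and 25.8% in Gcg KO. Its copy Gstp2 averaged 56.2 ± 38.1 RPKM (WT) and 30.5 ± 16.8 (Gcg KO) (limma adjusted p = 0.377). Their coding sequences are 98.1% identical and 62.3% of the windows of Gstp1 occur in Gstp2, so the split between them is uncertain.

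In the alpha class, which handles lipid peroxidation products and steroids, 0 of 4 genes passed in limma and 2 had an unadjusted p under 0.05. Gsta3, with 93.7% of the class's summed RPKM in WT, ran from 1152 through 1294 to 1404 in WT and from 894 through 1027 to 1305 in Gcg KO. Of the Gcg KO libraries 4 lay below all WT libraries, and Gcg KO 10 and Gcg KO 12, both of which stood apart, lay within the WT range. The log2 fold change was -0.25 ± 0.10 (limma adjusted p = 0.228); without the 3 libraries that stood apart it was -0.36 ± 0.08 and passed (limma adjusted p = 0.0473). Gsta2 averaged 32.6 ± 14.1 (WT) and 17.1 ± 7.06 RPKM (Gcg KO) (limma adjusted p = 0.149), with 2 Gcg KO libraries below WT. Gsta4, which conjugates 4-hydroxynonenal, had 49.6 ± 9.56 and 52.9 ± 12.8 RPKM (limma adjusted p = 0.915). Gsta1, whose coding sequence is 97.6% identical to that of Gsta2, had 2.89 RPKM as its WT median and 3.02 as its Gcg KO median, and was highest in WT 6 (9.77) and Gcg KO 12 (11.985). Of their windows 89.7% (Gsta1) and 64.2% (Gsta2) occur in another gene, so both levels are uncertain.

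Theta-class enzymes act on small halogenated compounds, and 0 of 3 genes passed in limma, with 1 at an unadjusted p under 0.05. Gstt1 ran from 137 through 154 to 191 RPKM in WT and from 116 through 147 to 185 in Gcg KO, with wide overlap (log2 fold change -0.12 ± 0.12, limma adjusted p = 0.721). Gstt3 ran from 20.1 through 27.6 to 37.4 in WT and from 10.9 through 17.7 to 22.0 in Gcg KO, and 4 of 6 Gcg KO libraries lay below WT. It missed the threshold (log2 fold change -0.70 ± 0.19, limma adjusted p = 0.0636) and passed without Gcg KO 10 (adjusted p = 0.0498). Gstt2 had 26.0 ± 7.73 and 30.5 ± 12.5 RPKM (limma adjusted p = 0.822). The omega-class Gsto1, a glutathione-dependent reductase, ran from 39.1 through 58.8 to 64.9 RPKM in WT and from 42.1 through 53.2 to 65.4 in Gcg KO (log2 fold change -0.04 ± 0.13, limma adjusted p = 0.941).

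Family 1 of the glucuronosyltransferases is made from 1 locus on chromosome 1 (88055411 to 88220002), where alternative first exons are joined to shared later exons. Ugt1a1, the bilirubin-conjugating enzyme, ran from 218 through 254 to 301 RPKM in WT and from 252 through 289.7 to 321 in Gcg KO. The groups overlapped, and the log2 fold change of 0.18 ± 0.09 did not pass (limma adjusted p = 0.341). Ugt1a6a and Ugt1a6b, which conjugate simple phenols, each had 5 of 6 Gcg KO libraries above the highest WT library but missed the threshold (71.3 ± 4.89 to 82.7 ± 7.64 RPKM, limma adjusted p = 0.134, and 58.8 ± 1.69 to 66.8 ± 6.55, adjusted p = 0.181). Ugt1a9 split the Gcg KO libraries. Gcg KO 7 and Gcg KO 8 had 34.9 and 38.2 RPKM and the other 4 had 9.64 to 19.8, against 24.4 to 37.4 in WT (limma adjusted p = 0.248). Ugt1a5 was highest in Gcg KO 10 and Gcg KO 12, at 46.7 and 48.9 RPKM, against 15.4 to 30.9 in the other 10 libraries (limma adjusted p = 0.567). Because of the shared exons, at least 58.2% of the windows of each Ugt1a transcript occur in that of another gene, and levels of the 6 genes are not independent.

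Family 2, which conjugates steroids, bile acids and many drugs, has 8 measured genes within 534 kb on chromosome 5 (86889770 to 87424203), and 1 of them passed. Ugt2b1 ran from 302 through 314 to 415 RPKM in WT and from 182 through 197 to 262 in Gcg KO. The groups did not overlap; WT 5 was the highest of all and Gcg KO 11 the highest of its group. Mean RPKM fell from 329 ± 42.7 to 207 ± 28.4, a log2 fold change of -0.67 ± 0.10 (limma adjusted p = 0.00137, the smallest of the 41 genes). No 50-base window of its transcript occurs in another gene.

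Genes on either side of Ugt2b1 did not follow it. Relative to Ugt2b1, Ugt2b34 was higher in Gcg KO by 0.87 on the log2 scale (exact permutation p = 0.00216, the smallest the test can give, adjusted p = 0.0281), and Ugt2b1 fell by 0.86 relative to Ugt2b35 (exact permutation p = 0.00433, adjusted p = 0.0281). The other 5 pairs of the cluster did not pass (exact permutation test, adjusted p = 0.0704 to 0.640). Ugt2b34 itself averaged 158 ± 11.5 (WT) and 181 ± 19.2 RPKM (Gcg KO) (limma adjusted p = 0.206), and Ugt2b35 68.2 ± 7.76 and 78.2 ± 14.3 (adjusted p = 0.492). Without the 3 libraries that stood apart the differences of these pairs and of Gstm2 with Gstm1 had the same sign (0.81, -0.78 and -1.27). The exact permutation test has only 126 arrangements there, with a smallest p of 0.00794, and 0 of the 13 pairs passed. Ugt2b34 with Ugt2b1 was 1 of 2 pairs that reached this p (adjusted p = 0.0516). Ugt2b1 with Ugt2b35 and Gstm2 with Gstm1 did not reach it (exact permutation p = 0.0238 and adjusted p = 0.0774 for each). A pair at the smallest p could pass there only if enough other pairs also reached it.

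Ugt2b5, the most abundant glucuronosyltransferase gene, ran from 495 through 524 to 561 RPKM in WT and from 498 through 573 to 668 in Gcg KO (log2 fold change 0.14 ± 0.07, limma adjusted p = 0.379). The groups overlapped in 2 Gcg KO libraries. Ugt2b36 had 306 ± 15.2 and 319 ± 22.5 RPKM (limma adjusted p = 0.718), and Ugt2a3 120.4 ± 11.9 and 98.8 ± 10.9 (adjusted p = 0.0972). Ugt2b37 and Ugt2b38, whose coding sequences are 94.7% and 97.0% identical to that of Ugt2b5, had 2.33 ± 0.454 and 20.7 ± 8.58 RPKM in WT and 3.52 ± 1.43 and 20.8 ± 9.08 in Gcg KO. Both are far below Ugt2b5 on this per-length scale, and with 41.7% of the windows of Ugt2b5 shared with other genes their levels are uncertain.

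Family 3 has 2 members, near each other on chromosome 15 (Ugt3a2 at 9335551 to 9370955), and its enzymes use sugars other than glucuronic acid. Ugt3a2 was the 1 gene of the 41 that rose. It ran from 159.7 through 166 to 175 RPKM in WT and from 185 through 197 to 215 in Gcg KO, without overlap. The spread was small, and the means of 167 ± 5.85 and 199.6 ± 11.1 gave a log2 fold change of 0.25 ± 0.05 (limma adjusted p = 0.0172). Without the 3 libraries that stood apart the change was 0.26 ± 0.06 and just missed the threshold (limma adjusted p = 0.0511). Ugt3a1, 93.2% identical in coding sequence, had 45.3 ± 7.09 and 44.3 ± 4.46 RPKM (limma adjusted p = 0.963), and 9.4% of the windows of either gene are shared.

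Among the sulfotransferases Sult1a1, on chromosome 7 (126672865 to 126690443), fell. This enzyme, which sulfates phenols and many drugs, ran from 126 through 146 to 165 RPKM in WT and from 55.3 through 84.8 to 118 in Gcg KO. All Gcg KO libraries lay below all WT libraries, and Gcg KO 10 came closest to WT. Mean RPKM fell from 144 ± 15.7 to 83.1 ± 23.7, a log2 fold change of -0.83 ± 0.16 (limma adjusted p = 0.0116). The other 3 measured genes of its family did not pass: Sult1b1, which sulfates thyroid hormones (8.85 ± 1.23 and 8.02 ± 1.72 RPKM), Sult1d1, which acts on catecholamines (31.5 ± 6.63 and 25.1 ± 4.26), and Sult1c2 (1.83 ± 0.348 and 1.27 ± 0.617). Sult1c2 passed without the 3 libraries that stood apart (log2 fold change -0.73 ± 0.15, limma adjusted p = 0.0283).

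Sult5a1 had the largest fold difference of the 41 genes, 3.09-fold lower in Gcg KO, with a large spread, and did not pass (log2 fold change -1.63 ± 0.45, limma adjusted p = 0.0627). It ran from 21.5 through 30.6 to 47.7 RPKM in WT and from 2.93 through 9.64 to 32.0 in Gcg KO. Gcg KO 11, at 32.0 RPKM, lay within the WT range, and the other 5 Gcg KO libraries lay below it. Without Gcg KO 11 the log2 fold change was -1.97 (limma adjusted p = 0.00885). Gcg KO 11 was also the Gcg KO library with the highest Gstm2 and Ugt2b1. Sult2a8, a liver sulfotransferase of bile acids, held 64.3% of the summed sulfotransferase RPKM in WT and 75.8% in Gcg KO. Its values, 368 through 399 to 414 RPKM in WT and 376 through 404 to 460.1 in Gcg KO, overlapped (log2 fold change 0.05 ± 0.06, limma adjusted p = 0.777).

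**Figure D4:**
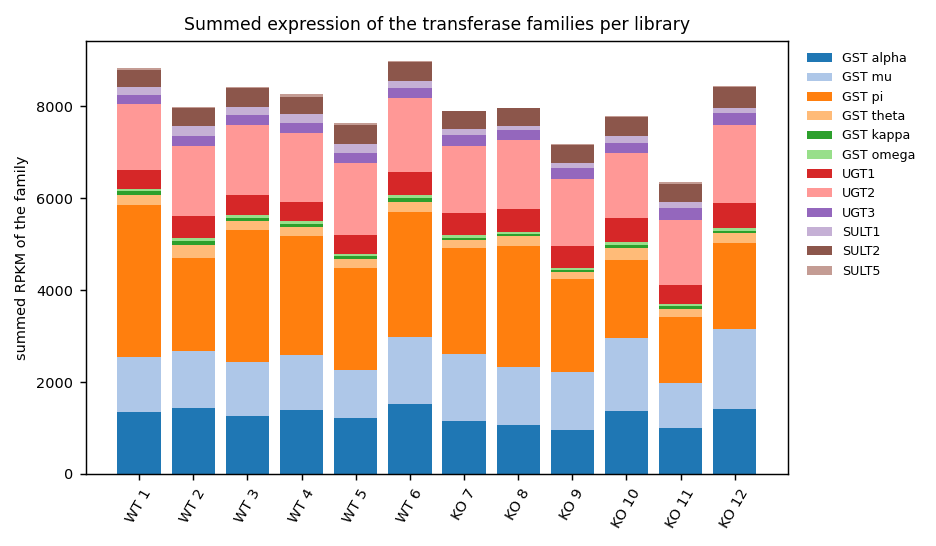
Summed RPKM of the measured genes of each family, stacked for each of the 6 WT and 6 Gcg KO libraries. The pi and alpha classes, the mu class and glucuronosyltransferase family 2 make up most of every bar, and the sum over all 41 genes lies between 6352 (Gcg KO 11) and 8981 (WT 6).

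Summed over members, which adds the levels and tests nothing, the glutathione transferases came to 5559 ± 544 (WT) and 4842 ± 641 RPKM (Gcg KO), the glucuronosyltransferases to 2182 ± 95.0 and 2222 ± 140.2, and the sulfotransferases to 612 ± 25.7 and 539 ± 46.8. All 41 genes together made up 1.05% to 1.49% of a library's summed RPKM. The pi class went from 2626 ± 462 to 2000.2 ± 423 and the mu class from 1223 ± 139 to 1383 ± 269.8.

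The 18 matched symbols under 0.5 RPKM include Sult2a1 and Sult3a1, known for their expression in female liver, and the estrogen sulfotransferase Sult1e1, with highest library values of 0.0834, 0.166 and 0.976 RPKM. Of the 18, 6 were at 1e-06 RPKM or less in every library and 2 (Sult1e1 and Ugt1a2) reached 0.5 in any. The members nearest above the limit were Ugt1a10 (mean 0.887 RPKM) and Sult2a7 (1.018), which at the estimated depth rest on about 15 to 42 and 3 to 26 reads per library, and neither passed. Below it the nearest was Ugt1a7c (0.251 RPKM).

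Genes that supply the cosubstrates mostly did not pass. Of 8 measured genes of glutathione supply 1 fell, Lap3, a peptidase that can cleave cysteinylglycine (141 ± 5.74 to 109 ± 4.23 RPKM, limma adjusted p = 6.11e-04), and 0 rose (median log2 fold change 0.03). Of these 8, 3 had an unadjusted p under 0.05. For UDP-glucuronate supply 0 of 6 passed in limma, and 0 had an unadjusted p under 0.05 (median 0.08). Ugp2, which makes UDP-glucose and is the most abundant of them, had 111 ± 17.2 and 98.4 ± 14.2 RPKM (limma adjusted p = 0.535). Of 10 genes of sulfate and PAPS supply 1 fell, the sulfate transporter Slc26a1 (44.1 ± 3.92 to 30.9 ± 4.07 RPKM, limma adjusted p = 0.00432), and 0 rose (median -0.03). Of these 10, 5 had an unadjusted p under 0.05. These counts stand beside 1.92% lower, 1.95% higher and 15.7% at an unadjusted p under 0.05 among all genes tested.

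Of 16 nuclear receptors, transcription factors and other regulators of conjugating genes, 0 passed in limma (median 0.01). An unadjusted p under 0.05 was found for 3 of them, where 15.7% of all genes tested had one. Hnf4a, the most abundant of the 16, had 155 ± 8.94 and 158 ± 25.5 RPKM. In the lists that follow, counts at an unadjusted p stand beside the same 15.7% of all genes tested. Counts that passed stand beside 1.92% lower and 1.95% higher. Of 15 measured NRF2 targets outside the transferases 1 rose, Me1, the malic enzyme (36.0 ± 18.0 to 83.0 ± 20.7 RPKM, limma adjusted p = 0.0269), and 0 fell (median 0.04). Of these 15, 6 had an unadjusted p under 0.05. Of 10 CAR and PXR targets 0 passed in limma and 2 had an unadjusted p under 0.05 (median -0.08), and Cyp3a11 was the most abundant (2171 ± 1429 and 2906 ± 1209 RPKM). Of 3 measured AhR targets 1 fell, Cyp1a2 (389 ± 77.2 to 278 ± 40.0 RPKM, limma adjusted p = 0.0495), and 0 rose. Of these 3, 1 had an unadjusted p under 0.05.

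Among 12 other conjugating enzymes 2 fell and 1 rose (median 0.05), and 6 had an unadjusted p under 0.05. The methyltransferases Nnmt and As3mt fell, from 96.1 ± 25.8 to 7.10 ± 6.75 RPKM (limma adjusted p = 1.44e-04) and from 17.4 ± 2.16 to 11.1 ± 0.898 (adjusted p = 9.04e-04), and the thiopurine methyltransferase Tpmt rose from 15.004 ± 1.35 to 20.5 ± 2.99 (adjusted p = 0.0236). Of 5 measured glutathione transferases and related proteins outside the 41 genes 0 passed in limma and 1 had an unadjusted p under 0.05 (median 0.09). They were Gstz1, Mgst1, Mgst3, Gstcd and Eef1g. The microsomal Mgst1, the most abundant, had 2657 ± 214 and 2827 ± 244 RPKM (limma adjusted p = 0.662). Of 5 deconjugating enzymes 0 passed and 2 had an unadjusted p under 0.05 (median -0.11). Gusb, beta-glucuronidase, the most abundant of them, had 10.9 ± 1.39 and 10.03 ± 0.936 RPKM. Of 6 measured transporters that export conjugates 1 rose, Abcg2 (33.2 ± 3.91 to 43.3 ± 4.42 RPKM, limma adjusted p = 0.0321), and 0 fell. Of these 6, 2 had an unadjusted p under 0.05. Of 15 genes known as male-biased in liver 2 rose and 1 fell (median 0.06), and 6 had an unadjusted p under 0.05. Mup20, a urinary protein, went from 5928 ± 1104 to 15551 ± 4652 RPKM (limma adjusted p = 8.14e-04). Its family holds near-identical copies, and the sequence Mup20 shares with them was not measured here, so its level may be uncertain. The organic anion transporter Slco1a1 went from 118 ± 18.7 to 187 ± 14.8 RPKM (limma adjusted p = 0.00151) and Elovl3, a fatty acid elongase, from 380.4 ± 58.3 to 228 ± 65.1 (adjusted p = 0.0153). Of 9 measured female-biased genes 1 fell, the steroid hydroxylase Cyp17a1 (3.30 ± 1.29 to 0.324 ± 0.136 RPKM, limma adjusted p = 9.7e-05), and 0 rose (median 0.19). Of these 9, 2 had an unadjusted p under 0.05.

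Markers of other liver cells were compared because some transferases are also expressed outside hepatocytes. Counts of markers that passed stand beside 1.92% lower and 1.95% higher among all genes tested. Summed cholangiocyte markers were 14.5 to 27.8 RPKM in WT and 35.2 to 249 in Gcg KO. Of 3 measured genes 1 was higher (Spp1), and 2 had an unadjusted p under 0.05. Spp1 made up most of these sums (17.8 ± 4.75 to 89.0 ± 79.4 RPKM, limma adjusted p = 0.0112). Krt19 (log2 fold change -0.16 ± 0.21, limma adjusted p = 0.788) and Sox9 (0.42 ± 0.14, adjusted p = 0.130) did not pass. Endothelial markers summed to 55.7 to 73.5 and 59.8 to 94.2 RPKM (1 of 6 higher, Lyve1, and 2 at an unadjusted p under 0.05). Stellate cell markers summed to 65.5 to 82.7 and 68.6 to 90.7 (1 of 6 higher, Rgs5, and 1 at an unadjusted p under 0.05). Kupffer cell markers summed to 52.5 to 97.2 and 63.6 to 101.5 (0 of 6 passed). Neutrophil markers summed to 2.30 to 63.05 and 2.58 to 53.4 RPKM (0 of 5 passed, and for both lists 0 had an unadjusted p under 0.05). Of T cell markers 0 of 5 reached a mean of 0.5 RPKM. Their part in the transferase values was not tested.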

How the data were processed

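Liver polyA RNA from fed mice, 6 WT and 6 Gcg KO libraries, was sequenced from strand-specific KAPA libraries, per the labels' protocols. The authors deposited RPKM per gene, with CASAVA 1.8.2, FastQC and the build GRCm38 named in the submitters' processing notes; the aligner, counter and annotation are not given there. Between 0 and 1e-06 RPKM, less than a whole read gives, lay 989 values of 408 genes. Genes with a mean of at least 0.5 RPKM were kept and log2(RPKM + 0.5) was tested in limma (version 3.58.1, R 4.3.3; trended prior variance, genotype as sole term), with p-values adjusted over all 11347 genes. The fit was tested on simulated data. Depth was estimated from the smallest common step of low RPKM times transcript length, which 76 to 119 of 344 to 425 low genes per library matched within 1%, so read numbers are approximate. Shared windows and coding identity came from GENCODE transcripts on GRCm38, coordinates from RefSeq. Alternatives were pseudocounts of 0.1 and 1, no filter or a mean of at least 2 RPKM, quantile or median scaling, no trend, library weights, and each library left out. Genes, lists and tests were chosen with earlier results of these data known. Full values are given for genes past the threshold or without overlap, the most abundant of each family, Gstm3 and the 3 nearest misses; each list names at most 3 genes past the threshold, or else its most abundant gene.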

Additional observations from a re-analysis of the deposited data

Results flagged for a closer look

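In 5 of 36 groups of 6 libraries (18 genes by 2 genotypes), the highest or lowest library lay apart from the rest by more of the group's range than Dixon's test allows at the 95% level; chance alone flags about 5% of groups. Gstk1 was at 70.2 RPKM in Gcg KO 10, the next highest Gcg KO library being at 55.1. Gstm3 was at 67.1 RPKM in WT 6, the next at 54.1, and Gstm6 was at 30.2 RPKM in Gcg KO 9, the next lowest at 49.7. Ugt2b1 was flagged in both genotypes, at 414.5 RPKM in WT 5 (next 326) and at 262.3 RPKM in Gcg KO 11 (next 206). The calls of Gstk1 and Ugt2b1 held when each of these libraries was left out in turn, that of Gstm3 was lost without WT 6 (log2 fold change -0.44, limma adjusted p = 0.0844), and Gstm6 passed without Gcg KO 9 (limma adjusted p = 0.0499).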

How the results depend on the processing

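Of the 7 calls, those of Gstk1, Gstm2, Sult1a1, Ugt2b1 and Ugt3a2 were kept under all 20 alternatives listed under the processing, and Ugt3a2 lost its call without WT 6, Gcg KO 10 and Gcg KO 12, an alternative added after seeing the data. Gstm3 lost its call under 12 of 21 alternatives (adjusted p = 0.0561 to 0.107 in limma where lost, 0.0154 to 0.107 over all 21) and Gstm7 under 9 (0.0523 to 0.0918 where lost, 0.0119 to 0.0918 over all 21). Their log2 fold changes over the 21 ran from -0.59 to -0.44 (-0.50 as reported) and from -0.58 to -0.40 (-0.46 as reported). The count of genes that fell was 6 and ran from 4 to 8, and from 4 to 7 with 1 library left out. The count that rose was 1 and became 0 without the 3 libraries. Among all genes tested, 218 were lower and 221 higher; with 1 library left out these ran from 144 to 210 and from 136 to 262, both lowest without WT 3, and 144 were higher without Gcg KO 9. Without the 3 libraries 131 were higher. Of the 13 neighbouring pairs 3 passed, 3 to 4 with 1 library left out and 0 without the 3 libraries. There a pair alone at the smallest p of the 126 arrangements has an adjusted p of 0.103 in the exact permutation test. The 2 pairs that reached it, Ugt2b34 with Ugt2b1 and Ugt2b37 with Ugt2a3, had 0.0516. Ugt2b1 with Ugt2b35 and Gstm2 with Gstm1 had a larger p (adjusted p = 0.0774 for each). For Gsto1 the log2 fold change, -0.04, ran from -0.14 to 0.0322 with 1 library left out and turned to 0.0077 without WT 6 and to 0.0322 without Gcg KO 11. Gained calls were Gstt3 under median scaling, library weights and without Gcg KO 10, Sult5a1 under library weights and without Gcg KO 11, Gstm6 without Gcg KO 9, and Gsta3 and Sult1c2 without the 3 libraries. The cause of these changes was not tested. No paired analysis was possible because the library numbers run from 1 to 6 in WT and from 7 to 12 in Gcg KO, so the groups share no number. RPKM carry no counting error of their own, and the estimated reads, 3 to 26 per library for Sult2a7, limit the lowest genes most.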
